A study of Mus musculus with 24 samples.

Results

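The uterus of progesterone receptor knockout (PRKO) mice was compared with that of wild-type mice after both had received progesterone (P4) for 40 h. The comparison held 6 of the 24 Affymetrix arrays of the series, chosen by their titles, 3 from P4-treated PRKO uteri and 3 from P4-treated wild-type uteri, and covered all 12422 probe sets that are not controls. All mice had been ovariectomized at 6 weeks of age, and 1 mg of P4 in sesame oil per mouse, or sesame oil alone, was first given after a further 2 weeks. Injections were repeated every 12 h, and 40 h uteri were taken 4 h after the fourth. The same genotypes were also measured at 40 h after vehicle, 4 h after a single P4 injection and at 4 h after vehicle, in groups of 3 arrays each. The 4 h vehicle groups enter below only through the shared estimate of spread. The labels name the genotypes as wild type and PRKO, with no strain or allele. Each RNA pool came from 5 mice of one genotype and treatment. Whether a group's 3 arrays held 3 pools or 1 pool measured repeatedly is not stated, and p-values below therefore cover only the spread between arrays, which may be technical.

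The progesterone receptor is a nuclear receptor that binds DNA and changes transcription once P4 occupies it. In the uterus it acts in the luminal and glandular epithelium, in the stroma and in smooth muscle, where it restrains estrogen-driven epithelial growth and prepares the endometrium for implantation. After ovariectomy the animals have little steroid hormone of their own, so injected P4 is the main ligand the receptor meets. A difference between genotypes under P4 can hold the response of the receptor to its ligand and anything that differed between the genotypes before the injection. For this reason vehicle values are given for many of the genes, and the vehicle comparison is described further below. Where a gene is given without vehicle values, nothing is said about its genotype difference without P4.

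Differences below are log2 differences, PRKO minus wild type, of scaled signal after adding 32, and signals are scaled to a common level per array. The value after ± is a standard error from a variance pooled over the 8 groups of 3 arrays, so it is the same for a gene at each time and treatment and does not show the spread of the compared arrays alone, which the values per array show. A probe set passed where the adjusted p of limma's moderated test was under 0.05 over all 12422 probe sets, and "higher" or "lower" is said of single genes only where this held. The Pgr probe set gave a dim signal on every array. It read 156, 169 and 144 on the wild-type P4 arrays and 126, 112 and 110.2 on the PRKO P4 arrays. The groups did not overlap and the difference was −0.34 ± 0.08 (adjusted p = 0.0307). In vehicle uteri it read 155, 128 and 157 in wild type and 119.8, 139 and 129.6 in PRKO, which overlapped (−0.14 ± 0.08, adjusted p = 1.00). The P4 difference lost its call without wild-type replicates 1 and 2 or PRKO replicates 2 and 3 (adjusted p up to 0.166) and with quantile normalization. No source used here places these probes relative to the disrupted part of Pgr, and a probe set outside that part checks nothing about the genotype labels.

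The 6 arrays had deposited medians of 329.0 to 339.9, and log2 signals correlated at 0.989 to 0.991 among the wild-type arrays, 0.989 to 0.994 among the PRKO arrays and 0.982 to 0.987 between the groups. Of the 81 genes within 50 places of Pgr on either side on chromosome 9, a region that can keep the sequence of the embryonic stem cell strain in a knockout line, 26 were measured. Of these 1 was lower in PRKO under P4, the receptor gene Gpr83 (−0.29, adjusted p = 0.039), and none was higher. Over all genes 1.49% were lower and 1.35% higher, and 8 of the 433 measured genes of chromosome 9 passed. None of the 26 passed in vehicle uteri. None of the 21 epithelium, 18 stroma and 12 smooth muscle markers measured was listed at 0, and neither was any of the 12 adipose markers. Only 35 values in the whole file were 0, so this cannot check which tissues the arrays held.

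Under P4 at 40 h, 322 of 12422 probe sets passed (2.59%), 139 higher in PRKO (1.12%) and 183 lower (1.47%), and they named 270 genes. Before adjustment, 2753 probe sets had a p under 0.05, beside 621.1 that a uniform p would give. Most differences were small, with a median absolute log2 difference of 0.47 among those that passed, and the largest lay on the lower side. Over all 12422 probe sets the groups of 3 arrays did not overlap for 35.2%, with 23.6% lower and 11.5% higher in PRKO. The balance of directions depended on scaling, since 168 were higher and 142 lower after quantile normalization and 178 and 140 without any scaling. The count also moved with single arrays and was 143 and 105 without wild-type replicates 1 and 2, and 146 and 90 without PRKO replicates 1 and 2. It rose to 546 (297 higher, 249 lower) when these 6 arrays were fitted alone and to 637 (222 higher, 415 lower) when a pair of 4 h wild-type arrays, whose Gapdh 3′/5′ ratios stood apart at 3.25 and 3.67, was left out of the shared estimate of spread.

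The lower genes were led by S100g, which encodes the calcium-binding protein calbindin-D9k. Its signal was 2633, 2260.4 and 2073 on the wild-type P4 arrays and 328, 344 and 361 on the PRKO P4 arrays, a difference of −2.64 ± 0.17 (adjusted p = 2.20e-09), 6.23-fold lower after the offset. Every wild-type P4 array lay far above every PRKO array, while vehicle uteri read 788, 872 and 573 in wild type and 354, 444 and 415 in PRKO. A second S100g probe set gave −2.22 ± 0.14. Calb1, the gene of the related calbindin-D28k, averaged 2387 and 1249 on the wild-type and PRKO arrays, a difference that did not pass (−0.95 ± 0.29, adjusted p = 0.083). S100g was the only one of the 14 measured genes of calcium binding and transport that passed, where 2.84% of all genes did. The median of the 14 was −0.19 beside −0.04 over all genes.

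Among genes of uptake and transport, Lrp2 encodes megalin, an endocytic receptor of epithelial surfaces. It read 1054, 869 and 1052 in wild-type and 184, 157 and 153 in PRKO P4 uteri (−2.38 ± 0.20, adjusted p = 3.05e-07), with no overlap. In vehicle uteri Lrp2 read 655, 383 and 339 in wild type and 144, 167 and 133 in PRKO, so wild-type arrays lay above PRKO arrays without P4 as well. The glucose transporter gene Slc2a3 read 828, 878 and 881 against 397, 375 and 416 (−1.06 ± 0.12), and its other probe set also passed (−0.73). The sodium pump subunit gene Atp1b1 was lower at 1 probe set (−0.91 ± 0.16) and gave −0.05 at the other, which did not pass. Of the 13 measured ion and water channel genes, 1 was lower and 2 were higher in PRKO, where 1.49% of all genes were lower and 1.35% higher.

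Several of the lowest genes encode enzymes of metabolism. Npl, the lyase that breaks down sialic acid, read 727, 708 and 843 in wild-type and 124, 136 and 146 in PRKO P4 uteri (−2.24 ± 0.25, adjusted p = 1.75e-05). Vehicle arrays read 408, 205 and 138 in wild type and 138, 143 and 131 in PRKO, all below the wild-type P4 arrays, with wild-type vehicle replicate 1 the highest. The acyl-CoA thioesterase gene Acot7 read 2132, 1792 and 2031 against 505, 475 and 463 (−1.97 ± 0.17, adjusted p = 3.14e-07), and its vehicle signals were 800.2, 549 and 476 and 479, 454 and 448. The P4 groups were again apart, and wild-type vehicle replicate 1 was again the highest vehicle array.

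Galm, the enzyme that interconverts the forms of galactose, was lower by every probe set but one, with −1.13 ± 0.18 at the one of largest difference, values from −0.38 to −1.02 at 4 others that passed and −0.16 at the dimmest. Gstm2, a glutathione transferase, read 2979, 1987 and 2544 against 786, 771 and 673 (−1.69 ± 0.34). Its call was lost without wild-type replicate 1 (adjusted p = 0.0526), and a second probe set gave −0.22, which did not pass. Gstm2 was the only one of 24 measured glutathione enzymes that passed, where 2.84% of all genes did. Sec23b, a coat protein gene of vesicles that leave the endoplasmic reticulum, read 3023, 2604 and 3062 against 1032, 1129 and 939 at 1 probe set (−1.46 ± 0.18) and differed by −0.18 at another, which did not pass.

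Another set of lower genes acts in inflammation and lipid signaling. Acod1, whose enzyme makes itaconate, read 1050.1, 960.0 and 810.4 in wild-type and 209.7, 224 and 234 in PRKO P4 uteri (−1.93 ± 0.15, adjusted p = 6.62e-08), and its other probe set also passed (−0.66). Vehicle uteri read 381, 317 and 284 in wild type and 211, 269 and 260.3 in PRKO, all below the wild-type P4 arrays. Hdc, which makes histamine, read 2093, 1733 and 2201 against 677, 733 and 565 (−1.56 ± 0.23, adjusted p = 0.000408). Without P4 it read 1683, 1094 and 813 and 469, 507 and 324, so the genotypes were apart in vehicle uteri too.

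The secreted phospholipase gene Pla2g10 read 984, 816 and 909.9 against 308, 282 and 301 (−1.50 ± 0.21), and Myd88, the adaptor of Toll-like receptors, 723, 570.5 and 719 against 305, 299.8 and 256 (−1.14 ± 0.17). Neither pair of groups overlapped. The prostaglandin E receptor gene Ptger3 read 171, 244 and 296 against 106, 107 and 107 (−0.93 ± 0.21). It lost its call without wild-type replicates 2 and 3 or PRKO replicates 1 and 2 (adjusted p up to 0.0936), and its other probe set gave −0.15. Of 14 measured prostaglandin pathway genes Ptger3 was the only one that passed, where 2.84% of all genes did. Hdc is also expressed by mast cells, and the other defining mast cell and eosinophil genes did not pass, with −0.35 ± 0.13 for Cpa3 and −0.29 ± 0.09 for Cma1. The summed signal of the 11 measured mast cell and eosinophil markers, Hdc included, ranged from 4238 to 4816 on wild-type and from 2860.3 to 3139 on PRKO P4 arrays. Hdc alone ranged from 1733 to 2201 and from 565 to 733 on these arrays, so the sum is no measure of these cells apart from Hdc. The part of mast cell content in these results was not tested.

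The metallothioneins, which bind metals and respond to several steroid hormones, were lower together. Mt2 read 4131, 3759 and 5162 in wild-type and 1938, 1927 and 1989 in PRKO P4 uteri (−1.13 ± 0.18, adjusted p = 0.000915), and 5362, 4029 and 3302 and 2165, 2061 and 2191 in vehicle uteri. Mt1 read 2946, 2246 and 2878 against 1402, 1228 and 1118 (−1.08 ± 0.23, adjusted p = 0.0144) and lost its call without wild-type replicate 1 or PRKO replicate 2 (adjusted p up to 0.0659). Of 20 measured genes of the shared steroid hormone response these 2 passed and no other, where 2.84% of all genes passed. The list median was 0.03 beside −0.04 over all genes. Other members known as glucocorticoid targets did not pass, with −0.23 ± 0.20 for Fkbp5, −0.15 ± 0.09 for Tsc22d3 and 0.02 ± 0.15 for Per1.

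The epithelium markers Spink1 and Cldn3 were lower in PRKO. Spink1, a secreted inhibitor of proteases, read 585, 443 and 238 in wild-type P4 uteri, a wide spread, and 77.9, 77.2 and 84.4 in PRKO P4 uteri (−1.94 ± 0.17, adjusted p = 5.64e-07). All 6 vehicle arrays lay near the PRKO level, at 88.3, 101 and 82.6 in wild type and 82.9, 76.6 and 94.5 in PRKO. The tight junction gene Cldn3 read 3779, 3179.8 and 3153 against 1815, 1734 and 1612 (−0.95 ± 0.19), and a second probe set passed as well (−0.83). Its relative Cldn4 did not pass (−0.29 ± 0.22).

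For the 15 lowest genes the wild-type vehicle mean lay above the PRKO vehicle mean in all 15 cases, whereas 61.7% of the 183 lower probe sets had the same sign in vehicle uteri, beside 57.1% of all probe sets. Wild-type vehicle replicate 1 was the highest of its 3 arrays for 13 of the 15, but for 81 of the 183 lower probe sets (44.3%), close to the 42.1% of all probe sets. The 15 were those of largest P4 difference among passing genes whose P4 groups did not overlap.

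**Figure D1:**
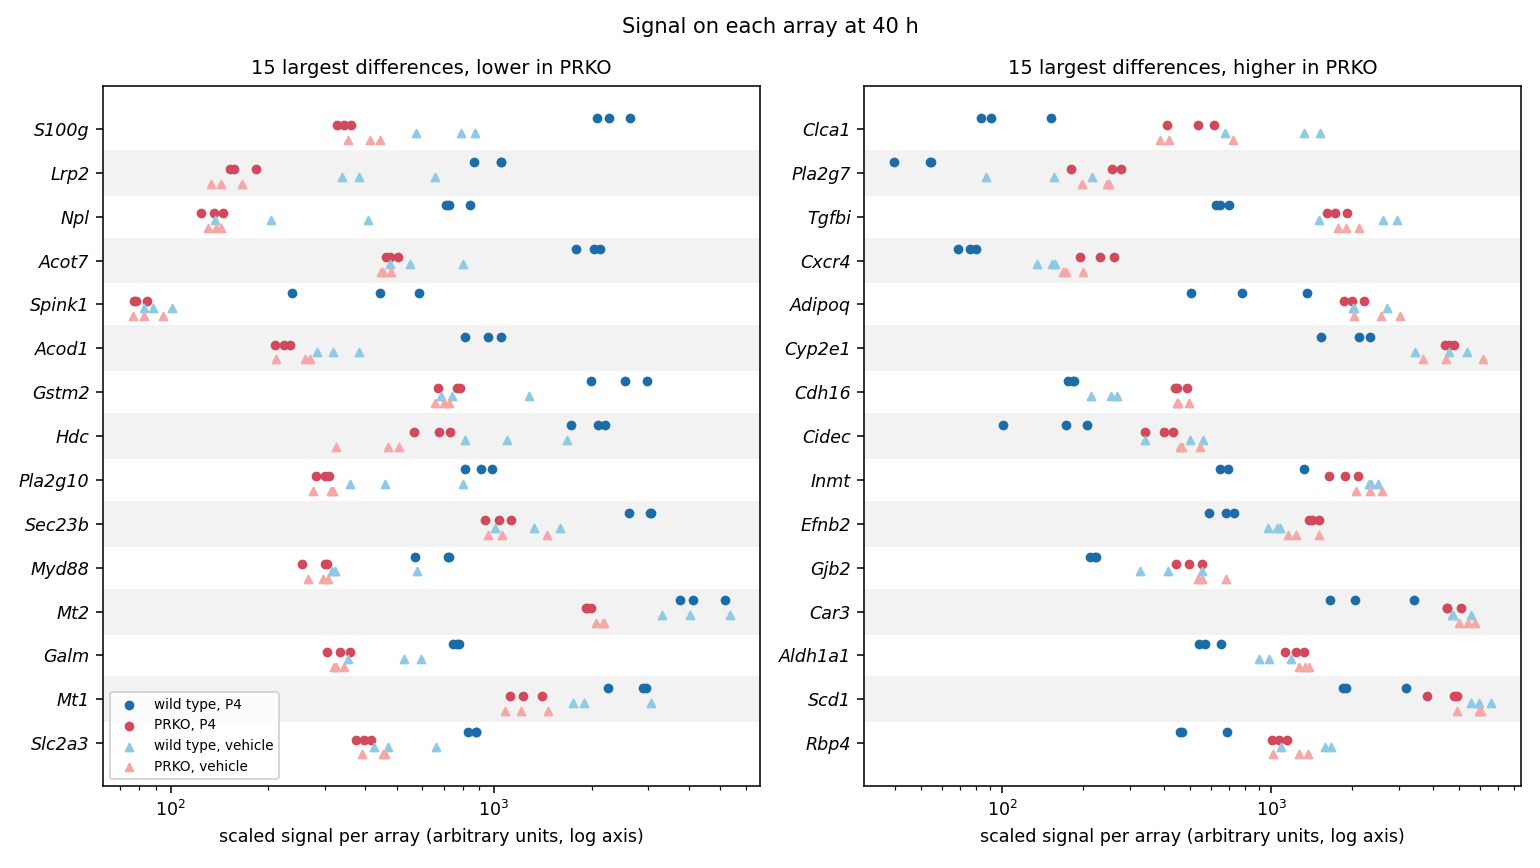
Scaled signal on a log axis of the 15 lowest and the 15 highest genes of the P4 comparison, on every array at 40 h, circles for P4 and triangles for vehicle, blue for wild type and red for PRKO. The 3 wild-type P4 points stand apart from the 3 PRKO P4 points for each gene, as the choice of genes required, and for S100g they read 2073 to 2633 against 328 to 361.

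The 250 bases before the annotated start are shown for S100g, the gene with the largest difference, and for Hdc, the lower gene of histamine synthesis, whose window unlike that of S100g holds a receptor half-site. Hdc was chosen for display after its match was seen. They are from RefSeq promoters of GRCm38.p6, 5′ to 3′ on the strand of the gene, which is the minus strand for both, at chrX:162964600-162964849 for S100g and chr2:126618679-126618928 for Hdc. Capitals mark the half-site shared by the progesterone, glucocorticoid, androgen and mineralocorticoid receptors, searched as AGAACA and TGTTCT, which is both strands of one motif.
S100g: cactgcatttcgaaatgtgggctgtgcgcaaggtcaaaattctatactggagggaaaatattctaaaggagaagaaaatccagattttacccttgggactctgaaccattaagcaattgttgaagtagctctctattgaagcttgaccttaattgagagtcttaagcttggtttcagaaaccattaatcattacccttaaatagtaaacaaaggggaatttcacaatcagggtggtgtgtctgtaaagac
Hdc: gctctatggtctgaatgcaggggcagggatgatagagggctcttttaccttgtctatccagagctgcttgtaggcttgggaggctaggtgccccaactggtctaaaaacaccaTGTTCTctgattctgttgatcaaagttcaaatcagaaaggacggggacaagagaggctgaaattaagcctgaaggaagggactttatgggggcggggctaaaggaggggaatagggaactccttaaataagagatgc

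In Hdc the half-site starts 137 bases before the start, and in S100g, Lrp2, Npl and Acot7, the 4 lowest genes, these letters do not occur in the window. Sec23b has 2 promoters in the table, of which 1 holds 5 matches and the other none. Of the 15 lowest genes 12 were found there, and 2 of their 13 promoters held the half-site (15.4%). Of the lower genes 113 of 147 were found in the promoter table, and 16 of their 150 promoters held the half-site (10.7%). Of the higher genes 91 of 123 were found, with 16 of 129 promoters (12.4%). The share was 12.1% among promoters of genes on the array and 16.1% among all promoters of the table, so both sets lay near the array's share. A match is no evidence of binding, and sites outside the window were not examined.

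The higher genes were of several kinds. The estrogen-regulated genes, which P4 restrains in the uterus, had 4 of 20 measured members higher in PRKO and none lower, with a median of 0.24 beside −0.04 over all genes, of which 1.35% were higher. Gjb2, the gap junction gene connexin 26, read 224, 212 and 222 in wild-type and 444, 555 and 494 in PRKO P4 uteri (1.07 ± 0.17, adjusted p = 0.00107). Vehicle uteri read 325, 415 and 555 and 534, 551 and 680.1, all above the wild-type P4 arrays. The carbonic anhydrase gene Car2 read 754, 767 and 829 against 1215, 1240.1 and 1295 (0.65 ± 0.14), and lost its call without wild-type replicates 1 and 2 or PRKO replicate 2 (adjusted p up to 0.0781).

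Ccnd1, the cell cycle regulator cyclin D1, was higher at 1 probe set (0.76 ± 0.19), with −0.01 at the other. Its call was lost without wild-type replicates 1 and 2 or PRKO replicates 1, 2 and 3 (adjusted p up to 0.176). It was also lost with quantile normalization and in a fit of the 6 arrays alone. In vehicle uteri the higher probe set read 620, 657 and 928 in wild type and 1079, 1089 and 1199 in PRKO, without overlap (0.61 ± 0.19, which did not pass). The Ccnd1 difference under P4 minus that in vehicle was 0.15 ± 0.27 and did not pass. Clca1, an epithelial gene linked to mucus and chloride transport, read 91.1, 83.2 and 151 against 412, 613 and 533 at 1 probe set (1.99 ± 0.47, adjusted p = 0.0254). In vehicle uteri the same probe set read 674, 1323 and 1525 in wild type and 387, 417 and 719 in PRKO (−1.13 ± 0.47, which did not pass). The other Clca1 probe set gave −0.10 under P4, and the call was lost without wild-type replicates 1 and 2 or PRKO replicates 1, 2 and 3 (adjusted p up to 0.142). Lactoferrin (Ltf), a classical estrogen-induced secretory gene, did not pass (0.67 ± 0.34, adjusted p = 0.243), and neither did Muc1 (0.15 ± 0.11). Of the list, 4 members passed without wild-type replicate 3, 1 without replicate 2 of either genotype, and 2 without any of the other arrays.

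Efnb2, the membrane ligand ephrin-B2, read 728, 681 and 588 in wild-type and 1417, 1506 and 1378 in PRKO P4 uteri (1.07 ± 0.12, adjusted p = 2.72e-05). Cdh16, a cadherin of epithelia, read 176, 184 and 183 against 446, 487 and 439.7 (1.20 ± 0.15, adjusted p = 5.35e-05), and 214, 253 and 268 against 496, 451 and 445 in vehicle uteri, again without overlap. The chemokine receptor gene Cxcr4 read 76.2, 80.3 and 68.3 against 196, 261 and 231 (1.28 ± 0.23). Its wild-type P4 arrays were the lowest of the 12 arrays at 40 h. Tspan8, a tetraspanin of epithelia, and the keratin gene Krt7 were higher too (0.92 ± 0.17 and 0.54 ± 0.12), and Krt7 lost its call without wild-type replicate 2 or PRKO replicate 2 (adjusted p up to 0.109).

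Pla2g7, whose enzyme inactivates platelet-activating factor, had the second largest higher difference. It read 39.7, 54.5 and 54.0 in wild-type and 181, 276 and 257 in PRKO P4 uteri (1.71 ± 0.21, adjusted p = 3.59e-05), with 86.8, 156 and 216 and 198, 249.7 and 246 in vehicle uteri. Tgfbi, a matrix protein gene induced by TGF-beta, read 627, 647 and 699 against 1619, 1917 and 1721 at 1 probe set (1.37 ± 0.23) and differed by −0.05 at the other. In vehicle uteri this probe set read 1500.4, 2935 and 2601 and 1770.5, 2130.2 and 1905, so the wild-type P4 arrays were below all vehicle arrays. Aldh1a1, which makes retinoic acid from retinal, read 539, 651 and 568 against 1130.4, 1324 and 1236 at 1 probe set (1.03 ± 0.12), and −0.15 was the difference at its other, dim probe set.

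Of the 15 highest genes 3 are on the list of adipose markers, Adipoq, Cidec and Car3. Adipoq, the adipocyte hormone adiponectin, read 505, 782 and 1365 in wild-type and 1997, 1868 and 2212 in PRKO P4 uteri (1.27 ± 0.25, adjusted p = 0.0089). In vehicle uteri it read 2019, 2026 and 2705 and 2026, 2563 and 3009, and the genotypes overlapped. The call was lost without wild-type replicate 1 (adjusted p = 0.0608). Cidec, a lipid droplet gene, read 100.4, 172 and 207 against 433, 339 and 399 (1.17 ± 0.31) and lost its call without wild-type replicates 1 and 2 or PRKO replicates 1, 2 and 3 (adjusted p up to 0.165) and with an offset of 64. The carbonic anhydrase gene Car3 (1.03 ± 0.18) and the lipase gene Lpl (0.95 ± 0.21) were higher, and Lpl lost its call without wild-type replicates 1 and 2 or PRKO replicates 1 and 3 (adjusted p up to 0.102) and gave 1.40 at another probe set, which did not pass.

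Of 12 measured adipose markers, 4 were higher and none was lower, with a median of 0.75. Over all genes 1.35% were higher and 1.49% lower, with a median of −0.04. The count higher was 5 without wild-type replicate 3 and 1 without wild-type replicate 1, and 2 without wild-type replicate 2, PRKO replicate 1 or PRKO replicate 3. The summed signal of the list was 6594 to 11246 on the wild-type P4 arrays and 14120.0 to 16662 on the PRKO P4 arrays. Vehicle arrays gave 15427 to 18091 for wild type and 17094 to 19502 for PRKO, so the 3 wild-type P4 arrays stood below the other 9. As a score, the mean log2 signal of these markers was 8.69 ± 0.30 (SD, n = 3) in wild-type and 9.39 ± 0.12 in PRKO P4 uteri, and 9.54 ± 0.16 and 9.60 ± 0.08 in vehicle uteri. The exact two-sided permutation p was 0.1, the smallest that 3 arrays against 3 can give, and 0.163 after Benjamini-Hochberg adjustment over 13 scores and ratios. In whole uteri fewer cells of a type and less RNA per cell cannot be told apart. None of the list's measured members was at 0, which says little because only 35 values in the whole file were.

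Other genes among the highest are not on that list. Cyp2e1, a cytochrome P450, read 1528, 2125 and 2338 against 4799.9, 4443 and 4569.8 (1.21 ± 0.23), Inmt, a methyltransferase, 693, 646 and 1322 against 1640.2, 2104 and 1889 (1.12 ± 0.20), and Rbp4, the carrier of retinol in blood, 467, 458 and 683 against 1067, 1008 and 1148 (0.98 ± 0.21). Rbp4 lost its call without wild-type replicates 1 and 2 or PRKO replicates 1 and 2 (adjusted p up to 0.0939). The desaturase gene Scd1 was higher at 2 probe sets (0.99 ± 0.18 and 0.68 ± 0.17), of which the latter lost its call without wild-type replicates 1 and 2 or PRKO replicates 1, 2 and 3 (adjusted p up to 0.162), and gave 0.02 at a dim one. Wild-type replicate 3 had the highest Adipoq, Cidec, Car3, Lpl, Cyp2e1, Inmt, Rbp4 and Scd1 signal of the 3 wild-type arrays. The part of adipose content in these differences was not tested.

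Other marker lists and a sign of RNA quality also differed between the P4 groups. The stroma score was 10.67 ± 0.07 in wild-type and 10.52 ± 0.02 in PRKO P4 uteri, the smooth muscle score 11.90 ± 0.05 and 11.72 ± 0.07, and the skeletal muscle score 8.14 ± 0.01 and 7.95 ± 0.04 (SD, n = 3). The macrophage, mast cell and ovary scores were also lower in PRKO without overlap, the mast cell score with Hdc among its members. The epithelium, endothelium, red cell and nerve scores overlapped. The ratio of 3′ to 5′ Gapdh signal, a sign of RNA quality, was 1.26 ± 0.04 and 1.38 ± 0.01, again without overlap, while that of beta-actin overlapped. Each of the measures without overlap had an exact permutation p of 0.1 and an adjusted p of 0.163. Over all probe sets the groups did not overlap for 35.2%, with 23.6% lower and 11.5% higher in PRKO. Their part in the gene differences was not tested.

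**Figure D2:**
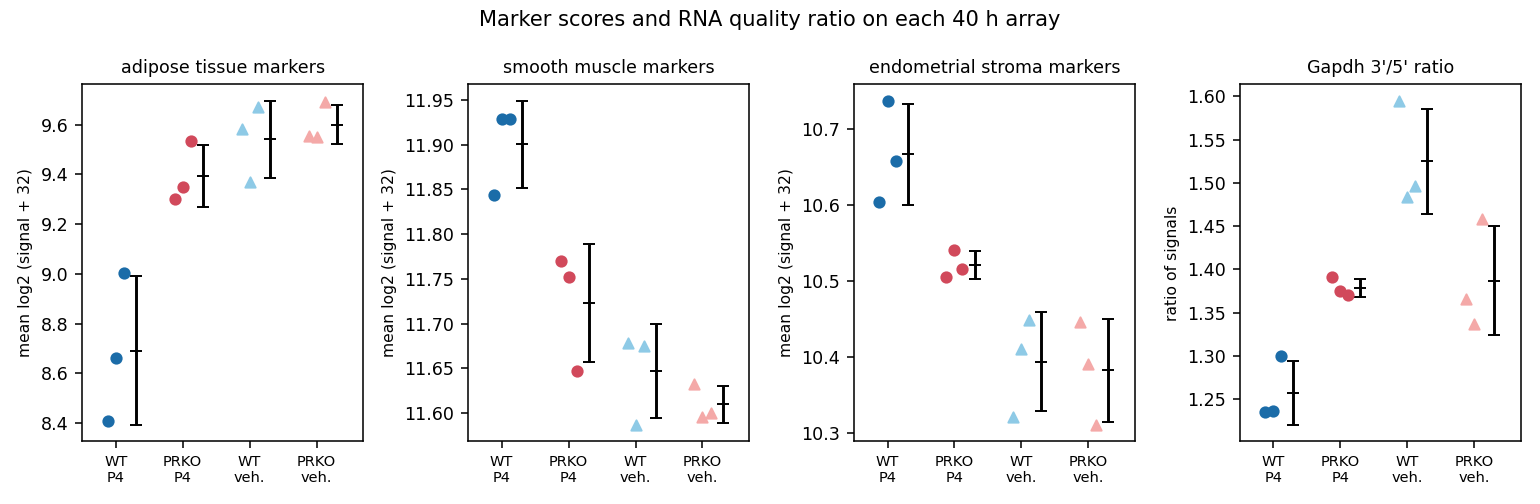
Adipose, smooth muscle and stroma scores (mean log2 of signal plus 32 over the measured markers) and the Gapdh 3′/5′ ratio on each 40 h array, with the mean and SD of 3 arrays as bars beside the points. The wild-type P4 arrays have the lowest adipose scores, 8.69 ± 0.30 against 9.39 ± 0.12 in PRKO P4 uteri.

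The progesterone response list holds genes linked to the P4 response of the uterus, and it was drawn up with earlier results of these data known, so its direction is not independent evidence. Of its 26 measured members, 5 were lower in PRKO and none was higher, with a median of −0.20, where 1.49% of all genes were lower and the median was −0.04. The 5 were Lrp2, Npl, Acod1, Hdc and Ihh. Ihh, the hedgehog ligand that the epithelium sends to the stroma, read 1102, 1189.7 and 1028 against 686, 650.5 and 874 (−0.58 ± 0.11, adjusted p = 0.00643), and lost its call without PRKO replicate 2 (adjusted p = 0.0648). The rest of the hedgehog pathway did not pass: its receptor gene Ptch1 differed by −0.29 ± 0.22, its target Gli1 by −0.00 ± 0.12 and the stromal nuclear receptor gene Nr2f2 by −0.29 ± 0.29.

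Members of the list that did not pass included Fst, which encodes the activin-binding protein follistatin (−0.73 ± 0.20, adjusted p = 0.0593), and the homeobox genes Hoxa11 (−0.34 ± 0.14) and Hoxa10 (−0.18 ± 0.19). The stromal transcription factor gene Hand2 averaged 300.3 and 282.7 (−0.08 ± 0.15), Bmp2 188.7 and 186.6 (−0.01 ± 0.09) and Wnt4 292.6 and 337.8 (0.19 ± 0.09). Cebpb, a transcription factor gene, averaged 393.0 and 688.5, in the other direction, and did not pass (0.76 ± 0.21, adjusted p = 0.0554). Among the steroid receptors and their partners, Pgr was the only one of 15 that passed, where 2.84% of all genes did. The estrogen receptor gene Esr1 differed by 0.07 ± 0.15 and the receptor co-chaperone Fkbp4 by 0.12 ± 0.11.

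Epithelium markers split, with 2 of 21 higher (Tspan8 and Krt7) and 2 lower (Spink1 and Cldn3). Their summed signal overlapped between genotypes, with 15785 to 17443 on wild-type and 16204 to 17229 on PRKO P4 arrays, and the general markers Krt18 (0.14 ± 0.11), Krt8 (0.18 ± 0.14), Epcam (0.38 ± 0.15) and Cdh1 (−0.14 ± 0.10) did not pass. Of 29 measured collagen and matrix genes 4 were lower and none was higher, where 1.49% of all genes were lower and 1.35% higher. The 4 were Col1a1 (−0.56 ± 0.14), Col1a2 (−0.56 ± 0.14), Col5a2 (−0.49 ± 0.10) and Sparc (−0.48 ± 0.13). Col5a2 read 1603, 1563 and 1589 against 1224, 1172 and 969 and passed in every alternative, while Col1a1, Col1a2 and Sparc lost their call without scaling. They also lost it when single arrays were left out, Col1a1 without wild-type replicates 2 and 3 or PRKO replicates 1, 2 and 3 (adjusted p up to 0.145), Col1a2 without wild-type replicates 2 and 3 or PRKO replicates 2 and 3 (adjusted p up to 0.15) and Sparc without wild-type replicates 2 and 3 or PRKO replicates 1, 2 and 3 (adjusted p up to 0.174). A second probe set gave −0.50 for Col1a1 and −0.22 for Col1a2, and neither passed. The list median was −0.06, near that of all genes.

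The smooth muscle myosin gene Myh11 was the only one of 12 smooth muscle markers that passed, with 5054, 5696 and 5194 against 3871, 4283 and 4201 (−0.36 ± 0.09). It lost its call with quantile normalization, without scaling and without wild-type replicates 1, 2 and 3 or PRKO replicates 1, 2 and 3 (adjusted p up to 0.159). The list median was −0.19, and Acta2 and Tagln differed by −0.21 ± 0.08 and −0.18 ± 0.08, neither of which passed. Of 17 macrophage and leukocyte markers, Cd14 (−0.54 ± 0.11) and the colony-stimulating factor receptor gene Csf1r (−0.45 ± 0.10) were lower and Ptprc (0.41 ± 0.11) was higher, while Adgre1 differed by −0.15 ± 0.09 and Cd68 by −0.00 ± 0.10. Other probe sets gave −0.10 and 0.07 for Ptprc and −0.48 for Csf1r, none of which passed. Cd14 lost its call without wild-type replicate 1 or PRKO replicate 2 (adjusted p up to 0.082), Csf1r without wild-type replicates 1 and 2 or PRKO replicates 1 and 2 (adjusted p up to 0.175) and Ptprc without wild-type replicates 1, 2 and 3 or PRKO replicates 1, 2 and 3 (adjusted p up to 0.237). None of the 14 skeletal muscle, 11 endothelium, 5 red cell, 11 ovary and oviduct or 7 nerve markers passed, where 2.84% of all genes did.

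In the remaining lists few genes passed, where 2.84% of all genes did. The heparin-binding growth factor gene Hbegf was the only one of 9 members of the EGF family (−0.46 ± 0.11), Igfbp1 of 13 of the insulin-like growth factor family (−0.32 ± 0.08, and −0.15 at another probe set) and Klk6 of 11 kallikreins (−0.28 ± 0.07), all lower in PRKO. Adamdec1 was the only one of 21 protease genes of the MMP and ADAM families, higher in PRKO (0.91 ± 0.21). Of 24 cell cycle genes, Ccnd1 and Mcm3 (0.31 ± 0.08) were higher, the latter with 0.07 at its other probe set, and of 14 retinoid genes, Aldh1a1 and Rbp4. Each of Hbegf, Igfbp1, Klk6, Adamdec1 and Mcm3 lost its call in some fit with 1 array fewer, where the adjusted p reached 0.202, 0.216, 0.178, 0.124 and 0.148. None of 22 Wnt pathway genes, 25 oxidative phosphorylation genes, 16 chaperones of the endoplasmic reticulum or 11 genes of class II antigen presentation passed. Among the class II genes, Cd74 did not pass (0.45 ± 0.13, adjusted p = 0.0683).

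**Figure D3:**
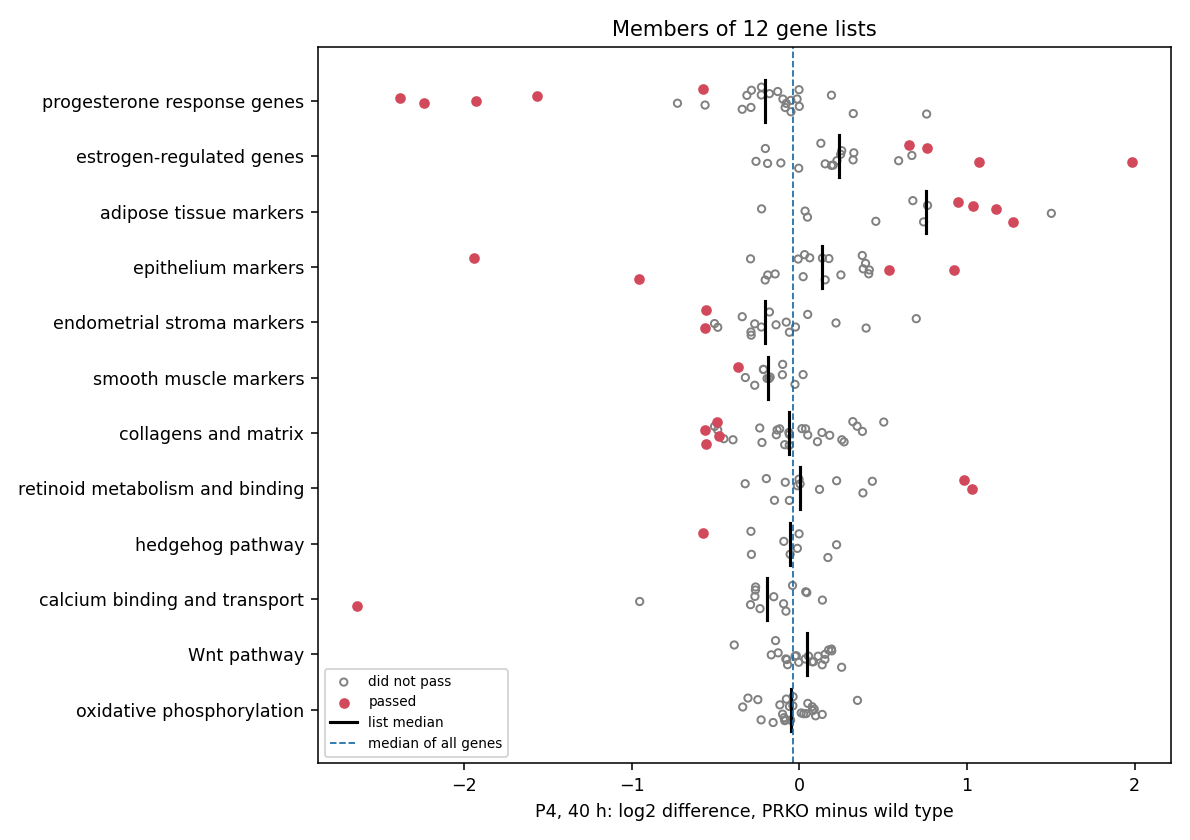
Log2 difference, PRKO minus wild type under P4 at 40 h, of each measured member of 12 gene lists, filled where it passed, with the list median as a bar and the median of all genes as a dashed line. The adipose list has the highest median, 0.75, and the 5 members of the progesterone response list that passed lie between −0.58 and −2.38.

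The next question was how much of the genotype difference was already there without P4. In vehicle uteri at 40 h, on 6 arrays whose levels do not enter the P4 difference, though all 24 arrays share the estimate of spread, 8 of 12422 probe sets passed by limma (0.0644%), 2 higher (0.0161%) and 6 lower (0.0483%) in PRKO, and 382 reached p under 0.05 before adjustment, beside 621.1 from a uniform p. All 8 also passed under P4 in the same direction, which is 100% of the 8 and 2.48% of the 322. They were Lrp2, Hdc, Sult1d1, Mt2, Pdzk1ip1 and 1 S100g probe set, lower, and Cdh16 and Mycn, higher. Sult1d1, Mycn and Pdzk1ip1 are named because they passed here, after their values were seen.

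Sult1d1, a sulfotransferase, read 338, 432 and 422 in wild-type and 157, 166 and 160.3 in PRKO vehicle uteri (−1.15 ± 0.13, adjusted p = 0.000229), and 344, 379 and 317 against 134, 195 and 165 under P4 (−0.95 ± 0.13). It was the only one of the 8 that kept its vehicle call in all 13 alternatives. With 1 vehicle array left out, Lrp2 kept its vehicle call in 5 of 6 fits and Hdc in 2. Cdh16, Mt2, Mycn, Pdzk1ip1 and the S100g probe set kept theirs in 1 of 6 each. The transcription factor gene Mycn read 225, 179 and 189 against 342, 337 and 332 in vehicle uteri (0.69 ± 0.12) and 167, 188 and 187 against 310.4, 293 and 247 under P4 (0.57 ± 0.12). Its second, very dim probe set gave 0.04 under P4. Pdzk1ip1 differed by −0.67 ± 0.13 in vehicle uteri and −0.59 ± 0.13 under P4. Under P4, Mycn lost its call without wild-type replicates 1 and 2 or PRKO replicates 1 and 2 (adjusted p up to 0.105). Pdzk1ip1 lost its P4 call without wild-type replicate 1 or PRKO replicates 1 and 2 (adjusted p up to 0.0904). With single vehicle arrays left out, 1 to 9 probe sets passed in vehicle uteri, namely 2, 3 and 1 without PRKO replicates 1, 2 and 3 and 4, 2 and 9 without wild-type replicates 1, 2 and 3.

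Over the 322 probe sets, 66.1% had the same sign in vehicle uteri, beside 57.1% of all probe sets, and across all probe sets the 2 differences correlated at a Pearson r of 0.293, a description across genes that are not independent. The median vehicle difference was 0.09 for the 139 higher and −0.06 for the 183 lower ones, against medians of 0.55 and −0.41 under P4. These probe sets were chosen by their P4 values, which enlarges the P4 medians. The medians therefore do not measure how much of the difference was there without P4.

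**Figure D4:**
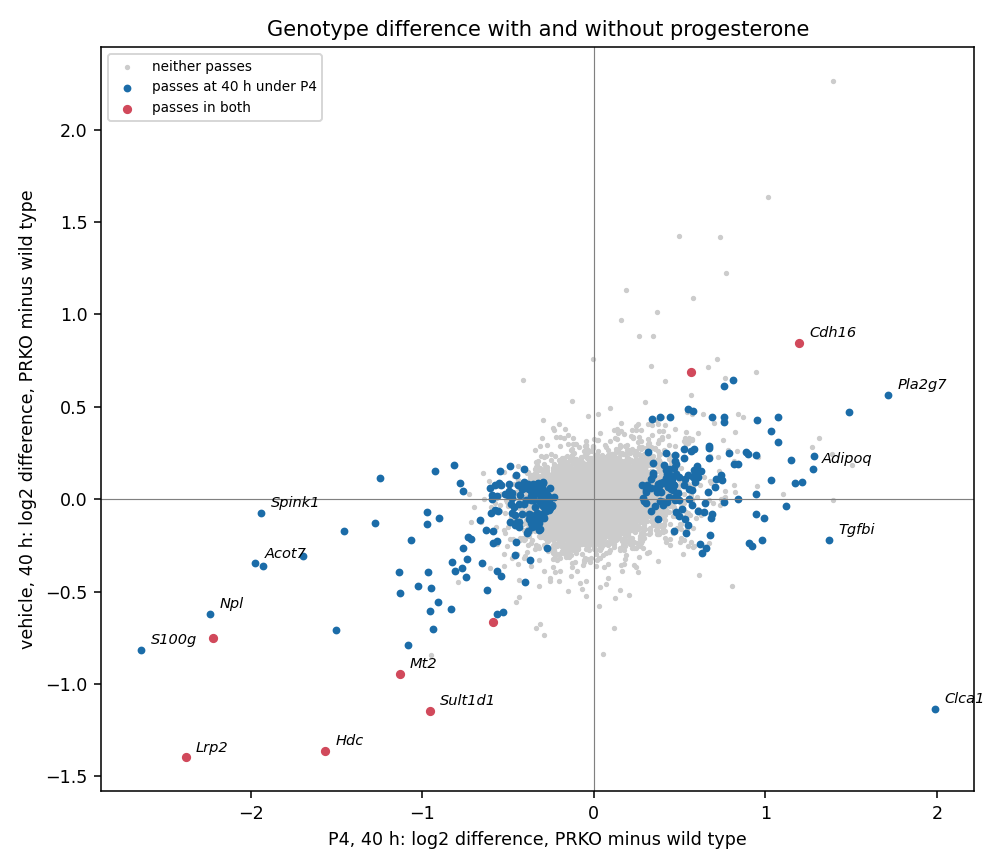
Log2 difference, PRKO minus wild type, at 40 h under P4 (horizontal) against that in vehicle uteri (vertical), 1 point per probe set, coloured by which comparison it passed. Lrp2, Hdc, Mt2, Sult1d1 and Cdh16 passed in both, while Spink1, which passed under P4 alone, lies at −1.94 under P4 and −0.07 in vehicle.

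Whether the genotype difference under P4 was other than that in vehicle was tested as the interaction of genotype and treatment, which uses the P4 arrays again and is given for its own values. By limma 13 probe sets passed (0.105%), 3 higher (0.0242%) and 10 lower (0.0805%). Among them Spink1 had the largest difference, −1.87 ± 0.25 (adjusted p = 0.000748). S100g followed with −1.82 ± 0.23 and −1.47 ± 0.19 at its 2 probe sets, and Acot7 (−1.62 ± 0.24), Acod1 (−1.56 ± 0.21) and Sec23b (−1.29 ± 0.25) also passed. Lrp2 and Hdc did not pass, at −0.98 ± 0.28 (adjusted p = 0.315) and −0.20 ± 0.32 (adjusted p = 0.878), and neither did Npl (−1.62 ± 0.35, adjusted p = 0.0885).

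The other named genes of the interaction were taken up because they passed it. The lipoxygenase gene Alox12e differed by −0.78 ± 0.10 under P4 and 0.09 ± 0.10 in vehicle (−0.87 ± 0.14, with −0.60 under P4 at its other probe set, which passed), and the protein repair gene Pcmt1 by −0.41 ± 0.06 and 0.06 ± 0.06. The dipeptidase gene Cndp2 was higher in PRKO under P4 (0.62 ± 0.12) with −0.24 ± 0.12 in vehicle. Tiam1, an activator of the small GTPase Rac, read 101, 97.8 and 99.5 against 181, 179.9 and 168 under P4 (0.66 ± 0.08) and differed by 0.04 ± 0.08 in vehicle, while its other, brighter probe set gave −0.04 under P4 and did not pass. The potassium channel gene Kcnq1 passed neither contrast alone (0.24 ± 0.08 and −0.37 ± 0.08), with an interaction of 0.61 ± 0.12. Other probe sets gave differences under P4 that did not pass, −0.08 for Kcnq1 and −0.21 and −0.10 for Pcmt1. The remaining 2 probe sets name no gene. Spink1, S100g, Acot7 and Acod1 kept the call in all 19 alternatives and Alox12e in 17, whereas Sec23b, Pcmt1, Cndp2, Tiam1 and Kcnq1 each lost it without most single arrays. With single arrays left out 5 to 32 probe sets passed, the most without wild-type vehicle replicate 1 and the fewest without wild-type vehicle replicate 3. The count was 6 to 8 without wild-type vehicle replicate 2, any PRKO vehicle array, wild-type P4 replicates 1 or 2, or PRKO P4 replicates 1 or 2.

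The last question was which differences were present after a single P4 injection. Vehicle uteri at 4 h were not compared between genotypes here. A 4 h difference, or a change between times, can therefore include one that was there without P4. At 4 h, on 6 other arrays that again share only the estimate of spread, 152 probe sets passed (1.22%), 52 higher (0.419%) and 100 lower (0.805%) in PRKO. Of these 46 also passed at 40 h, which is 14.3% of the 322 and 30.3% of the 152, and 45 of the 46 had the same direction. Over the 322 probe sets 73.0% had the same sign at 4 h, beside 52.7% of all probe sets, and the Pearson r across probe sets was 0.298. Among the 4 h wild-type P4 arrays replicate 2 had a Gapdh 3′/5′ ratio of 3.25, where 22 of the 24 arrays lay between 1.23 and 1.86. Without it and the wild-type vehicle array of 4 h that had a ratio of 3.67, 111 probe sets passed at 4 h, and 84, 90 and 96 passed without wild-type replicate 1, wild-type replicate 2 and PRKO replicate 1. The 4 h count was 69 when only 4 h arrays were fitted.

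Lower at both times were Lrp2, with 506, 589.7 and 576 against 168, 119 and 151 at 4 h (−1.73 ± 0.20), and Npl, with 631, 656 and 429 against 147, 148 and 142 (−1.74 ± 0.25). Hdc differed by −2.06 ± 0.23, Acot7 by −1.43 ± 0.17, Pla2g10 by −1.45 ± 0.21, Myd88 by −1.28 ± 0.17, Mt2 by −1.04 ± 0.18 and Ihh by −0.66 ± 0.11. Higher at both times were Gjb2, with 200.4, 218 and 191 against 479, 689 and 489 (1.30 ± 0.17), Efnb2 (1.05 ± 0.12), Car2 (0.95 ± 0.14), Cdh16 (0.89 ± 0.15) and Cxcr4 (0.99 ± 0.23). At 4 h Mt1 (−1.11 ± 0.23) and Cxcr4 each kept their call in only 2 of the 6 fits with 1 array fewer, where the adjusted p reached 0.113 and 0.297.

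Part of the 40 h difference was not seen at 4 h. The difference of the 40 h and 4 h contrasts passed by limma for 37 probe sets (0.298%), 24 more positive (0.193%) and 13 more negative (0.105%) at 40 h, and for 75 without wild-type replicate 3 of 4 h. S100g read 287, 235 and 239 in wild-type and 302, 397 and 309 in PRKO uteri at 4 h (0.36 ± 0.17), where the PRKO arrays were the higher ones without overlap but the difference did not pass (adjusted p = 0.597). The change between times was −3.0 ± 0.23 (adjusted p = 9.53e-08). Spink1 read 75.5, 80.7 and 91.1 against 97.2, 81.1 and 90.0 (0.09 ± 0.17, change −2.03 ± 0.25) and Acod1 301, 297 and 299 against 349, 206 and 255 (−0.16 ± 0.15, change −1.77 ± 0.21). Aldh1a1 read 1708, 1606 and 1477 against 1339, 1234 and 1464 at 4 h (−0.24 ± 0.12, change 1.27 ± 0.17), its wild-type signal at 4 h lying above that at 40 h. Adipoq differed by 0.09 ± 0.25 at 4 h, which did not pass, and its change between times did not pass (1.18 ± 0.36, adjusted p = 0.233).

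Other genes passed at 4 h and not at 40 h, and they are named because the change passed. Cyp26a1, which degrades retinoic acid, read 1212, 1171 and 725 against 111, 106 and 109 at 4 h (−2.89 ± 0.16) and averaged 126 ± 8.98 against 126 ± 9.99 (SD, n = 3) at 40 h. The wild-type arrays were far above the PRKO arrays at 4 h, and the groups overlapped at 40 h. The steroid-inducible kinase gene Sgk1 differed by −1.29 ± 0.18 at 4 h and 0.06 ± 0.18 at 40 h, the pyruvate dehydrogenase kinase gene Pdk3 by −1.40 ± 0.15 and −0.16 ± 0.15, and the glutathione cycle gene Ggct by −1.25 ± 0.09 and −0.13 ± 0.09. None of these 4 passed at 40 h. The change of Sult1d1 (−0.90 ± 0.18) kept its call in 8 of 18 alternatives, 4 of them among the 12 fits with 1 array fewer, with an adjusted p of up to 0.129. Sult1d1 differed by −0.05 ± 0.13 at 4 h under P4. At 40 h it differed by −0.95 ± 0.13 under P4 and by −1.15 ± 0.13 in vehicle uteri, so its 40 h difference was there without P4 too. The change of Sgk1 lost its call without replicate 2 of either genotype at 40 h or replicate 1 of either genotype at 4 h (adjusted p up to 0.0704). Psmg3, a proteasome assembly gene, passed in opposite directions, with 0.39 ± 0.08 at 4 h and −0.36 ± 0.08 at 40 h. Its other probe set gave −0.02 at 40 h, and the 40 h call was lost without wild-type replicates 2 and 3 or PRKO replicates 1 and 2 (adjusted p up to 0.109). The 4 h call of Psmg3 was kept in 8 of 13 alternatives, 3 of them among the 6 fits with 1 array fewer (adjusted p up to 0.146). It was lost without the pair of 4 h arrays of high Gapdh 3′/5′ ratio.

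**Figure D5:**
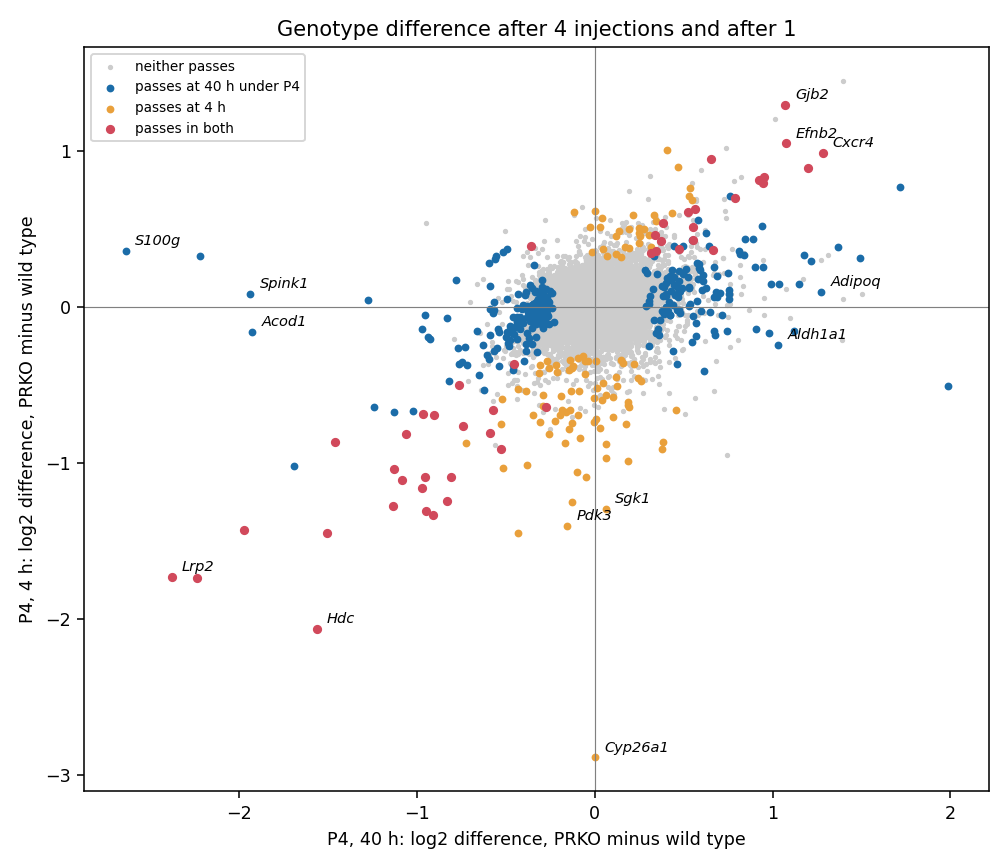
Log2 difference, PRKO minus wild type under P4, at 40 h (horizontal) against 4 h (vertical), 1 point per probe set, coloured by which time it passed. Lrp2 and Hdc lie low on both axes, S100g at −2.64 and Spink1 at −1.94 passed at 40 h and not at 4 h, and Cyp26a1, at −2.89 on the 4 h axis, passed at 4 h and not at 40 h.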

How the data were processed

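The data were Affymetrix arrays of whole mouse uterus, hybridised with biotin-labelled cRNA made from total RNA, per the labels' protocols. The authors deposited 1 intensity per probe set and array on a linear scale, made with MAS5, per the submitters' processing notes. The file held 12488 probe sets, of which 66 controls were left out and 35 values in all were 0. Each array was scaled here to a 2%-trimmed mean of 500, then put on the log2 scale after adding 32, which shrinks the differences of dim probe sets. limma 3.58.1 in R 4.3.3 fitted the means of 8 groups over all 24 arrays (lmFit, eBayes with an intensity trend, 16 residual and 4.98 prior degrees of freedom), and p-values were adjusted by Benjamini-Hochberg over 12422 probe sets for each contrast, with 0.05 as the threshold. The steps were tested on simulated data with independent normal noise on each array, which cannot show how they behave where arrays share variation.

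Of the probe sets, 10833 name 1 gene, 396 several and 1193 none, and 10817 of those with 1 gene matched a RefSeq gene. Lists used the brightest probe set of a gene, over 8251 genes, and 103 listed genes were not measured. The comparison, its 34 gene lists and the tests were chosen with earlier results of these data known. Genes named are Pgr, the 15 highest and the 15 lowest passing genes whose groups did not overlap, up to 4 passing members of each list, and the largest that passed under both P4 and vehicle. Sult1d1, Mycn, Pdzk1ip1, Alox12e, Pcmt1, Kcnq1, Tiam1, Cndp2, Cyp26a1, Sgk1, Pdk3, Ggct and Psmg3 were added after their values were seen. Alternatives were offsets of 16 and 64, quantile normalization, no scaling, a minimum mean signal of 100, other sets of arrays, no intensity trend, a replicate block and each array left out in turn. The number of arrays limits the precision.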

Additional observations from a re-analysis of the deposited data

Results flagged for a closer look

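The genotype difference under P4 at 40 h differed from that in vehicle by limma's test of the interaction for these genes, given as the log2 difference between the contrasts. The values were −1.87 for Spink1, −1.82 and −1.47 at the 2 probe sets of S100g, −1.62 for Acot7, −1.56 for Acod1, −1.29 for Sec23b, −0.87 for Alox12e and −0.47 for Pcmt1. They were 0.86 for Cndp2, 0.62 for Tiam1 and 0.61 for Kcnq1, on the positive side.

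The genotype difference under P4 at 40 h differed from that at 4 h by the same kind of test. On the negative side were S100g (−3.0 and −2.55 at its 2 probe sets), Spink1 (−2.03), Acod1 (−1.77), Alox12e (−0.96), Sult1d1 (−0.90) and Psmg3 (−0.75). On the positive side were Cyp26a1 (2.89), Sgk1 (1.35), Aldh1a1 (1.27), Pdk3 (1.25), Ggct (1.12), Cndp2 (1.03) and Kcnq1 (0.70). The call of Sult1d1 was kept in 8 of 18 alternatives, and its 40 h difference was also present in vehicle uteri (−1.15). Both tests use the 40 h P4 arrays, so the lists share arrays. With 3 arrays a group, no group was large enough to look for single outlying arrays.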

How the results depend on the processing

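The count of 322 probe sets stayed between 310 and 330 with offsets of 16 or 64, quantile normalization, no scaling, the filter on dim signal or no intensity trend. It was 1147 with the 40 h arrays alone, 546 with the 6 compared arrays alone and 637 without the pair of 4 h arrays of high Gapdh 3′/5′ ratio, an alternative chosen after seeing the data. The vehicle count was 13 with the 40 h arrays alone, and the 4 h count 69 with the 4 h arrays alone. With the replicate number as a block, 858 passed under P4 at 40 h, 13 in vehicle, 27 for the interaction, 255 at 4 h and 88 for the change between times. Same-numbered P4 arrays at 40 h correlated in their deviations at 0.249, −0.062 and 0.225. Replicates 1 and 3 correlated best with their own number and replicate 2 did not. The median standard error of the P4 difference at 40 h was 0.091 with the block and 0.102 without. Whether the numbers pair the arrays was not tested. With 1 array left out the counts ran from 90 to 292 under P4 at 40 h, 1 to 9 in vehicle, 5 to 32 for the interaction, 84 to 164 at 4 h and 25 to 75 for the change. Of the 66 named genes, 34 gave the same direction and call for the P4 difference at 40 h in all 16 alternatives. Direction turned only for genes that had not passed there: Cyp26a1, at 0.090 after quantile normalization and 0.033 without scaling, ran from −0.035 to 0.051 with 1 array left out, and Sgk1 from −0.047 to 0.12. Where a count moved, the cause was not tested. Signals near the offset of 32 allow only understated differences.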
